A study of Arabidopsis thaliana with 6 samples.

Results

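U2 is the small nuclear RNA (snRNA) of the spliceosome that pairs with the branch site of an intron. In Arabidopsis thaliana it is made from many dispersed gene copies, each transcribed by RNA polymerase II from a promoter with an upstream sequence element and a TATA box, and the primary transcript is normally cut shortly after the mature 3′ end. The phosphatase CPL4 acts on the repeated tail of the largest RNA polymerase II subunit, and the study asked how CPL4 bears on the use of snRNA transcription units. The U2 copies were taken by name from a deposited table of read depth, which lists 18 of them among its 75 snRNA copies. Each copy has a row for the snRNA, of 179 to 196 bp, and a row for the 50 bp after its 3′ end, here called the extension, so that U2 accounts for 36 of 150 regions. 1 copy, atU2-18p, is marked as a pseudogene by its name and is kept apart below.

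The 6 libraries came from whole seedlings, 10 days old, of the ecotype written as Colombia in the labels, grown on a medium with sucrose, and the labels give no treatment. 3 libraries were wild type and 3 came from plants labelled as a CPL4 knockdown by RNA interference, and the design text calls each set biological triplicates. The sources used here do not give the promoter of the silencing construct or the number of lines. Depth is the sum of the read depth at every base of a region in 1 library, with no stated scaling. The labels name the table with the letters dcpm, which the sources used here do not explain. Extension sums of exactly 50, 100 and 150 occurred 11, 4 and 4 times among the 75 copies. Sums of 49, 99 and 149 occurred 0 times each, and sums of 51, 101 and 151 occurred 2, 0 and 2 times. Each of the 6 libraries held at least 1 sum of exactly 50, 100 or 150. A read lying over all of an extension is therefore taken to add 50, and a read that only crosses its edge adds less. In bulk seedlings, fewer cells of a type and less RNA per cell cannot be told apart.

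The targeted transcript went against the label. CPL4 stood at 4.92 FPKM (fragments scaled by transcript length and library) in wild type, against 8.84 FPKM in the libraries labelled CPL4 knockdown, by the authors' deposited table (q = 6.39e-04), with 1 value per genotype, so no single library could be checked. The sources used here do not say whether reads of the silencing construct enter the FPKM of CPL4. The genotype is therefore written as the labelled knockdown throughout. Depth over all regions of the table was 2180315, 7535755 and 4821226 in wild type, against 1602365, 2963978 and 283411 in the labelled knockdown, so labelled-knockdown replicate 3 had the lowest sum. Leaf and root transcripts were present in both groups in the authors' deposited table, given here as wild type and labelled knockdown. RBCS1A, a Rubisco subunit of leaves, stood at 4637 and 5823 FPKM there, and the leaf gene GLO1 at 345 and 412 FPKM. The leaf genes LHCB1.1 and LHCB2.1 went the other way there, at 2818 and 2622 FPKM and at 1602 and 1261 FPKM. PYK10, a root glucosidase, was at 589 and 593 FPKM there. The root gene MLP34 was at 88.8 and 85.6 FPKM there, and the root gene PIP2;4 was also slightly lower. The root aquaporin TIP2;3 was at 4.29 and 1.47 FPKM there (q = 0.00117), and of these genes it alone had q under 0.05.

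The U2 copies are alike in the snRNA and unlike after it. No 2 copies had the same snRNA sequence, and identity between pairs ran from 90.8% to 99.0% over the 16 copies other than atU2-17 and atU2-18p. Extension sequences shared a median identity of 54.7% over all 153 pairs, with a maximum of 72.5%. All 100-base windows that touch an extension were unique in the genome for every copy, while for the snRNAs the unique share ran from 47.9% (atU2.4) to 100%. It was 48.5% for atU2.3, atU2-10 and atU2-10b/12 and 49.0% for atU2-1. Depth over an extension can thus be placed on a copy with more confidence than depth over an snRNA, since the sources used here do not say how reads with several possible origins were treated. The snRNA of the copy with the highest depth and that of atU2-11, the copy with the highest extension depth in the labelled knockdown, are shown from the RefSeq assembly TAIR10.1, 5′ to 3′, with the word that pairs with the intron branch site in capitals (GTAGTA, at position 34 in 17 of the 18 copies).
atU2.5 snRNA (chr5:2975012-2975207, plus strand): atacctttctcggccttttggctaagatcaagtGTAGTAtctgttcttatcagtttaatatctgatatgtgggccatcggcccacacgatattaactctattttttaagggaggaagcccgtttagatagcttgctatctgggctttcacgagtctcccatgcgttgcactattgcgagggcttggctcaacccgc
atU2-11 snRNA (chr1:3180541-3180734, minus strand): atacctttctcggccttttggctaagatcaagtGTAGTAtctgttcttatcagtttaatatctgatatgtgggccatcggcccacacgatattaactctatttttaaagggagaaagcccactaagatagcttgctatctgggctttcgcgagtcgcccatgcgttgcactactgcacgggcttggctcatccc
The 2 shown are 93.4% identical.

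The extensions carry the comparison between the genotypes. Shown are the 8 whose depth relative to the own snRNA was called higher in the labelled knockdown, and that of atU2.6, which had no reads in any library. Capitals mark AGTNNAA, the end of the 3′ element of plant snRNA genes.
atU2.3 extension (chr3:21397373-21397422, minus strand): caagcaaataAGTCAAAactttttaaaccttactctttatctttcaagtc
atU2.5 extension (chr5:2975208-2975257, plus strand): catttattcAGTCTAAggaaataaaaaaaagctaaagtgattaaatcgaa
atU2.7 extension (chr5:24713358-24713407, minus strand): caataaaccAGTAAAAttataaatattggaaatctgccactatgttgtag
atU2-1 extension (chr1:5758583-5758632, plus strand): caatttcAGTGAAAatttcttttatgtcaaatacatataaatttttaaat
atU2-10 extension (chr2:849974-850023, plus strand): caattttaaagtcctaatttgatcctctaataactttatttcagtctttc
atU2-11 extension (chr1:3180491-3180540, minus strand): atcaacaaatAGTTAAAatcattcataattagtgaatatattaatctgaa
atU2-13 extension (chr2:8802284-8802333, plus strand): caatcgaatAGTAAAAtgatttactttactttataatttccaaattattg
atU2-14 extension (chr1:4842473-4842522, plus strand): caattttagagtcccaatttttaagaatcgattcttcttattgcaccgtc
atU2.6 extension (chr3:21004689-21004738, plus strand): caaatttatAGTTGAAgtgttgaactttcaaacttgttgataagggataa
AGTNNAA was found on the transcribed strand in 15 of 18 U2 extensions, and in 14 of them it followed CA after 3 to 10 bases. On the opposite strand 1 U2 extension held it. The word was found in 17 of 57 extensions of the other snRNAs and in 7.17% of 50-base windows of the genome on a given strand, and the word with its CA in 2.46%. The extensions without it were those of atU2-10, atU2-10b/12 and atU2-14. The extensions of atU2-10 and atU2-14 had reads in all 3 labelled-knockdown libraries, and that of atU2-10b/12 in 2. In all, 10 U2 extensions had reads in all 3, and those other than atU2-10 and atU2-14 hold the word. The extension of atU2.6, which holds the word, had none. A relation between the word and depth was not tested.

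Most U2 copies at or near 0 lack a promoter word that the other copies share. The 90 bases before the snRNA are shown for the copy of highest depth, for atU2-11 and for the 4 copies of lowest depth, with capitals for CCCACATCG, the core of the upstream sequence element, and for the TATA-like word TATANA.
atU2.5 upstream: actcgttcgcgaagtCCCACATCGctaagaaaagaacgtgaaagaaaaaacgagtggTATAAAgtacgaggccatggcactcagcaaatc
atU2-11 upstream: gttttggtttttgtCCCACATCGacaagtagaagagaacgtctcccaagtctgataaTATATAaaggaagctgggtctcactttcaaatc
atU2-17 upstream: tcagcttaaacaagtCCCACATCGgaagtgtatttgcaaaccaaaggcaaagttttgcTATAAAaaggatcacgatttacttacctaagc
atU2-16 upstream: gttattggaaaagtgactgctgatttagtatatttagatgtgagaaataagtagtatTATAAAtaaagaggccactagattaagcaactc
atU2.9 upstream: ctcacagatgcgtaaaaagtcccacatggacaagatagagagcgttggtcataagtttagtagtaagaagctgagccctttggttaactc
atU2-18p upstream: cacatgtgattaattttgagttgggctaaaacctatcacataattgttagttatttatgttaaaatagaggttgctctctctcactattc
CCCACATCG was found in 15 of 18 U2 promoters, always 75 or 76 bases before the snRNA and on the transcribed strand, and in 0.142% of 37897 windows of the same length before annotated genes. TATANA, looked for between 45 and 20 bases before the start, was found in 16 of 18 against 13.3%. Both were found in 15 of 18, against 0.124%, with 33 or 34 bases between them. The copies without CCCACATCG were atU2.9, atU2-16 and atU2-18p, whose mean wild type depth per base was 0.567, 1.29 and 0. Apart from atU2-17, the 14 copies with it ranged from 6.29 to 295 per base. atU2-17 has both words but a shorter snRNA of 179 bp, 77.5% identical to atU2.5, and was at 0 in wild type. These matches describe sequence and are no test of promoter use.

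**Figure D1:**
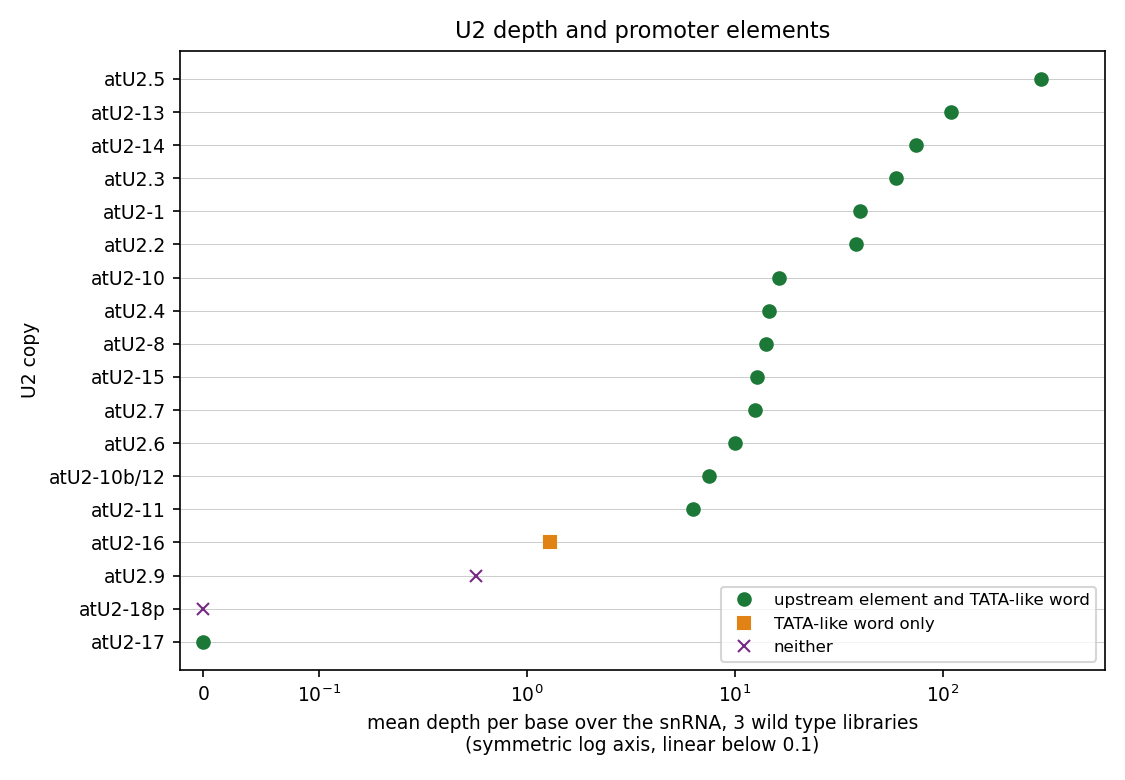
Mean depth per base over each U2 snRNA in the 3 wild type libraries, on a symmetric log axis, for the 18 copies ordered by depth, with symbols for the promoter words found. The 3 copies without the upstream element lie at 0, 0.567 and 1.29, and atU2-17 is the copy at 0 that has both words.

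Depth over the U2 snRNA regions did not differ in a way the test could call. This depth does not tell mature snRNA from transcripts that run on into the extension. Of 18 U2 snRNA regions, the labelled knockdown had 0 called higher and 0 lower (limma on log2(depth + 1), Benjamini-Hochberg adjusted over 150 regions), against 0 higher and 1 lower at an unadjusted p under 0.05. As background, 22.7% of the 75 snRNA regions were called lower, all 17 of them outside U2. The median log2 difference (labelled knockdown minus wild type) was −0.73 over the U2 snRNA regions and −1.95 over all 75 snRNA regions. The sign of the U2 value depends on scale and on 1 library. Of the 17 U2 snRNAs with reads, 14 had a difference below 0, but 3 had one when libraries were scaled by their median ratio and 7 without labelled-knockdown replicate 3. Under median-ratio scaling 1 U2 snRNA, atU2-11, passed the test as higher, at 0.98 (limma adjusted p = 0.0379).

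atU2.5 supplied more U2 depth than any other copy. It stood at 72721, 47528 and 52991 in wild type, against 30337, 69702 and 20575 in the labelled knockdown, a log2 difference of −0.69 ± 0.52 (SE; limma adjusted p = 0.502) that turned to 1.01 under median-ratio scaling. The groups overlapped. Its share of all U2 snRNA depth was 41.1% ± 4.66 (SD, n = 3) in wild type, against 41.1% ± 15.5 (SD, n = 3) in the labelled knockdown. By the authors' deposited table the U2.5 gene, whose locus reaches past the snRNA, had an FPKM that fell from 69.5 to 49.5 (q = 0.0122).

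atU2-13 came next, at 17229, 22234 and 24761 in wild type, against 14905, 37710 and 2127 in the labelled knockdown. atU2-14 was at 30574, 4993 and 8221 in wild type, against 6241, 18769 and 5718 in the labelled knockdown. For both copies the groups overlapped, with the highest library in the labelled knockdown for atU2-13 and in wild type for atU2-14. atU2.3 stood at 9947, 14403 and 10554 against 11556, 14131 and 1369, and atU2-1 at 2588, 12680 and 8050 against 8466, 11793 and 1079. In both, labelled-knockdown replicate 3 was the lowest of the 6 libraries and the other 5 overlapped. atU2.2 had a wider range than any of these, at 1691, 12411 and 8405 in wild type, against 16251, 37429 and 465 in the labelled knockdown. By the authors' deposited table, FPKM of the U2.2 gene rose from 7.34 to 17.5 (q = 6.39e-04), while the 6 library depths of atU2.2 overlapped between the groups. Of the other U2 genes there, U2.3, U2.4, U2.6 and U2.7 were not called.

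Copies of middle depth showed the same overlap with 2 exceptions. atU2.4, atU2.6, atU2.7, atU2-8, atU2-10 and atU2-11 had mean depths in wild type from 1219 (atU2-11) to 3203 (atU2-10), and their groups overlapped. The first exception, atU2-10b/12, was at 1274, 2406 and 752 in wild type, against 382, 456 and 142 in the labelled knockdown. All its labelled-knockdown libraries lay below all wild type libraries, with a log2 difference of −2.18 ± 0.68 (SE; limma adjusted p = 0.101). With 48.5% of its snRNA windows unique, its depth also rests on how shared reads were treated, which is not known. The other, atU2-15, was at 3070, 1801 and 2654 in wild type, against 332, 1235 and 0 in the labelled knockdown, with a difference of −5.04 ± 3.01 (SE; limma adjusted p = 0.357). As background, 41.3% of the 75 snRNA regions had every labelled-knockdown library below every wild type library, against these 2 of 18 for U2, and the difference was not tested. These counts are of unscaled depth. Taken as a percentage of the U2 depth in the same library, atU2-10b/12 was 1.08% ± 0.673 in wild type against 0.339% ± 0.107 in the labelled knockdown, and atU2-15 was 1.79% ± 0.361 against 0.309% ± 0.293 (SD, n = 3; exact 2-sided permutation p = 0.1 for each, the smallest 3 against 3 can give).

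The remaining copies were near the floor. atU2.9 was at 330, 0 and 0 in wild type, against 85, 170 and 0 in the labelled knockdown. atU2-16 was at 438, 0 and 322 against 0, 164 and 0, and atU2-17 at 0, 0 and 0 against 15, 190 and 0. Sums of this size stand for few reads. The pseudogene copy atU2-18p had no reads in its snRNA region or its extension in any library, and it lacks both promoter words and the branch-site word.

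**Figure D2:**
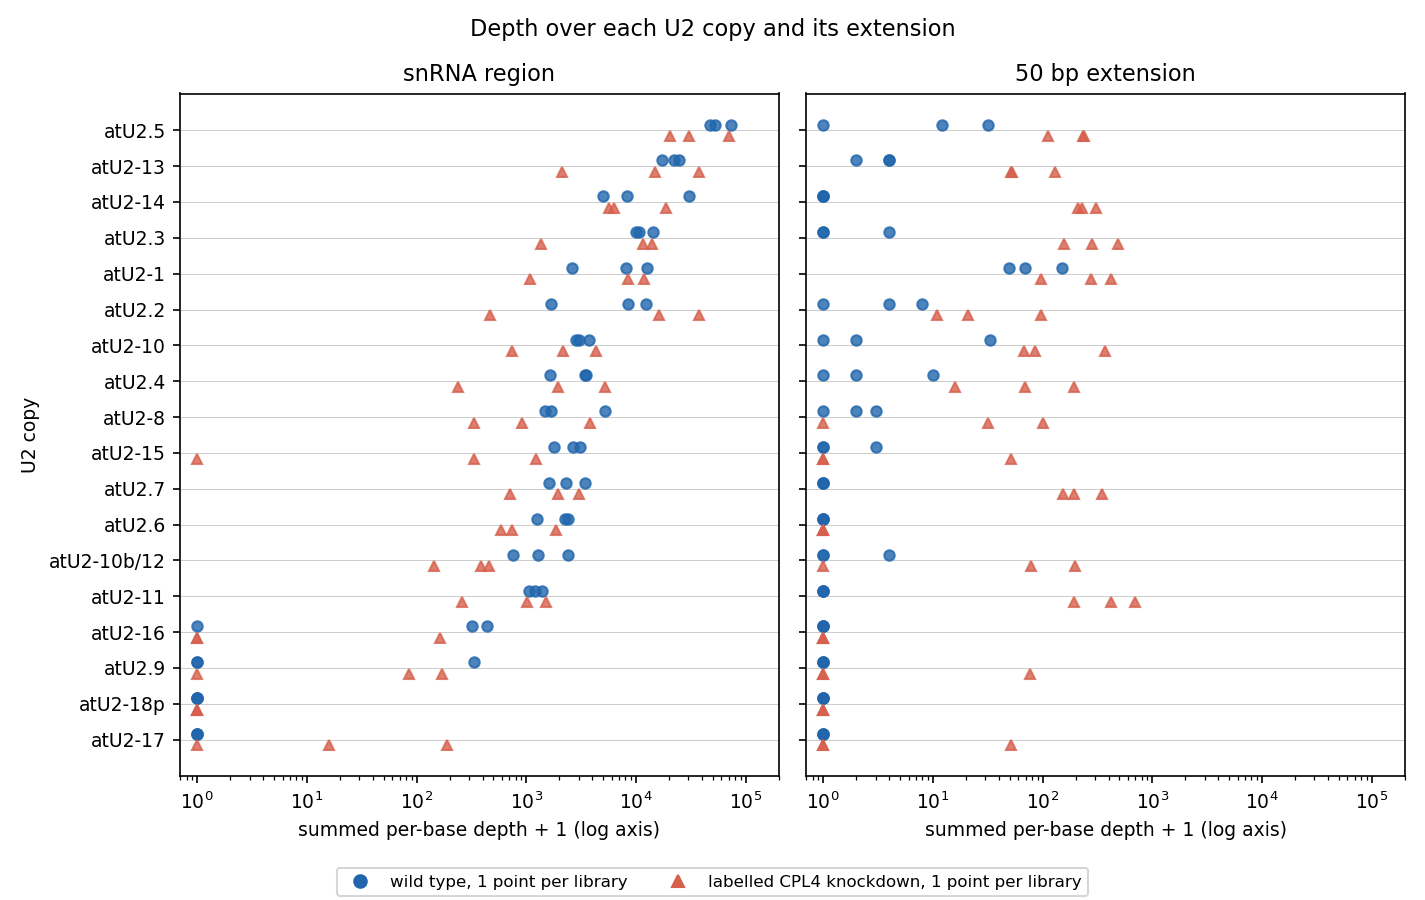
Summed depth plus 1 on a log axis over the snRNA (left) and the extension (right) of the 18 U2 copies, ordered by wild type snRNA depth, with 1 point per library. Over the snRNAs the groups overlap except for atU2-10b/12 and atU2-15, and over the extensions the labelled-knockdown points lie above all wild type points for 9 copies.

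Depth past the 3′ end was higher in the labelled knockdown after many U2 copies. In wild type, 35 of the 54 U2 extension values (18 copies in 3 libraries) were 0 and 2 reached the 50 that 1 whole read gives. In the labelled knockdown 17 of 54 were 0 and 33 reached that depth. After 9 of the 18 copies every labelled-knockdown library was above every wild type library, and the reverse was seen after 0, while as background 32.0% of the 75 extensions had every labelled-knockdown library above. Summed over the copies, U2 extensions reached 84, 171 and 124 in wild type, against 2343, 2838 and 1588 in the labelled knockdown. The lowest labelled-knockdown sum was thus far above the highest wild type sum. The means were 126 ± 43.5 and 2256 ± 629 (SD, n = 3; exact 2-sided permutation p = 0.1).

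The test on single regions called 5 U2 extensions higher and 0 lower (limma, adjusted over 150 regions), against 8 and 0 at an unadjusted p under 0.05. As background, 20.0% of the 75 extensions were called higher, 10 of the 57 outside U2. The U2 extensions had a median log2 difference of 3.56, the 57 extensions outside U2 one of 1.89, and this difference was not tested. Extensions without reads have a difference of 0 and enter both medians. Reads in any library were present for 15 of 18 U2 extensions and for 57 of all 75. Sums over a family gave another order. The log2 ratio of U2 to U1 extension depth was −1, 0.65 and −1.24 in wild type, against −1.38, −1.84 and −1.29 in the labelled knockdown, lower in every labelled-knockdown library (exact 2-sided permutation p = 0.1). The U2 share of all extension depth was 15.1% ± 5.41 in wild type, against 8.57% ± 7.85 in the labelled knockdown, and 15.4% ± 5.14 against 15.6% ± 2.02 with atU5-13 left out of the total (SD, n = 3; the groups overlapped, exact 2-sided permutation p = 0.3 and 1). The copy atU5-13 bore mainly on labelled-knockdown replicates 1 and 2. Without it the U2 share there was 15.5% and 13.6%, against 4.71% and 3.40% with it, while replicate 3 stayed at 17.6%. After all 6 omissions of 1 library, the 5 U2 extensions still passed.

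The extension of atU2-11 had the highest mean depth in the labelled knockdown. It was at 0, 0 and 0 in wild type, against 416, 700 and 193 in the labelled knockdown, a log2 difference of 8.59 ± 0.51 (SE; limma adjusted p = 8.84e-04). The groups stand far apart even though the atU2-11 snRNA overlapped between them, at 1066, 1387 and 1205 in wild type, against 1022, 1502 and 259 in the labelled knockdown. atU2-14 followed a pattern of the same kind, with an extension at 0 in all wild type libraries and at 308, 207 and 228 in the labelled knockdown (difference 7.94 ± 0.17 SE, limma adjusted p = 2.59e-05). Its 3 labelled-knockdown values were the most even of the set. The atU2.7 extension, likewise at 0 in all wild type libraries, stood at 193, 151 and 346 (difference 7.76 ± 0.34 SE, limma adjusted p = 4.37e-04). These 3 were the copies with no extension read in wild type and reads in every labelled-knockdown library. With wild type at 0 throughout, that group added no spread, so their SE and p-values may understate the uncertainty.

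The other extensions that passed had a few bases of depth in wild type. That of atU2.3 was at 0, 3 and 0 in wild type, against 281, 482 and 156 in the labelled knockdown (difference 7.45 ± 0.77 SE, limma adjusted p = 0.00584). That of atU2-13 was at 3, 3 and 1 in wild type, against 52, 128 and 50 in the labelled knockdown (difference 4.47 ± 0.52 SE, limma adjusted p = 0.00692). For atU2-13 the labelled-knockdown depths amount to the bases of about 1 to 3 whole reads, after an snRNA that was among the deepest of the family. The size of these differences is set in part by the pseudocount of 1. With pseudocounts of 10 and 50 they were 5.30 and 3.14 for atU2-11, 4.67 and 2.56 for atU2-14, 4.50 and 2.42 for atU2.7, 4.72 and 2.7 for atU2.3, and 2.7 and 1.22 for atU2-13, and all 5 passed at both. In the deposited gene table, loci listed for other genes also span the extensions of atU2.3 (AT3G57770), atU2.5 (AT5G09580), atU2.7 (AT5G61460) and atU2.4 (AT3G56820 among others). A deposited locus can reach beyond its gene, since U2.4 and AT3G56820 are listed with the same locus. The TAIR10.1 annotation has the own U2 gene alone over each of these extensions. Over some others it has another gene on the same strand, such as AT2G04405 over that of atU2-10. Among the extensions that passed, it has AT1G09800 over that of atU2-11 and AT2G20410 over that of atU2-13. Both genes were called higher in the authors' deposited table. The part of other genes' reads in the extension depths was not tested.

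Apart from atU2-1, extensions that did not pass were of 3 kinds. In the first kind the groups did not overlap but the spread was wide: atU2.5 was at 31, 0 and 11 against 110, 234 and 239 (limma adjusted p = 0.101), atU2-10 at 0, 1 and 32 against 85, 371 and 66 (limma adjusted p = 0.111). To this kind also belonged atU2.4, at 0, 1 and 9 against 191, 15 and 68, and atU2.2, at 0, 7 and 3 against 10, 20 and 96. In the second kind a labelled-knockdown library was at 0: atU2-8 was at 2, 1 and 0 against 100, 31 and 0, and atU2-10b/12 at 0, 3 and 0 against 196, 78 and 0. Both were at 0 in labelled-knockdown replicate 3, in which the extensions of atU2.2, atU2.5 and atU2.7 had their highest values, and both passed without it (limma adjusted p = 0.0349 and 0.0268). The third kind had reads in 1 labelled-knockdown library at most, with atU2.9 at 75 and atU2-17 at 50 in replicate 1, atU2-15 at 51 in replicate 3, and atU2.6, atU2-16 and atU2-18p at 0 in all 6 libraries. atU2.6 stands apart among these, because its snRNA had reads in every library, at 2267, 1259 and 2375 in wild type, against 737, 1851 and 591 in the labelled knockdown.

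atU2-1 was the exception in wild type. Its extension was at 48, 150 and 68 in wild type, against 276, 421 and 95 in the labelled knockdown, and it was the U2 extension with the highest depth in each wild type library. The groups overlapped (difference 1.49 ± 0.76 SE, limma adjusted p = 0.268), while under median-ratio scaling the difference was 3.17 and passed (limma adjusted p = 0.00419). As a share of U2 extension depth it was at 57.1%, 87.7% and 54.8% in the wild type libraries and at 11.8%, 14.8% and 5.98% in the labelled-knockdown libraries, without overlap (exact 2-sided permutation p = 0.1). The atU2-1 extension lies on the strand opposite to the annotated gene AT1G16820, which stood at 0.765 and 1.41 FPKM in the authors' deposited table (q = 0.619). The sources used here do not give strand marking, so reads of that gene and of the extension cannot be told apart. In the labelled knockdown the U2 extension depth was spread over more copies, with atU2-11 at 18.2% ± 6.27, atU2.3 at 12.9% ± 3.67, atU2.7 at 11.8% ± 8.79 and atU2-14 at 11.6% ± 3.78 (SD, n = 3).

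**Figure D3:**
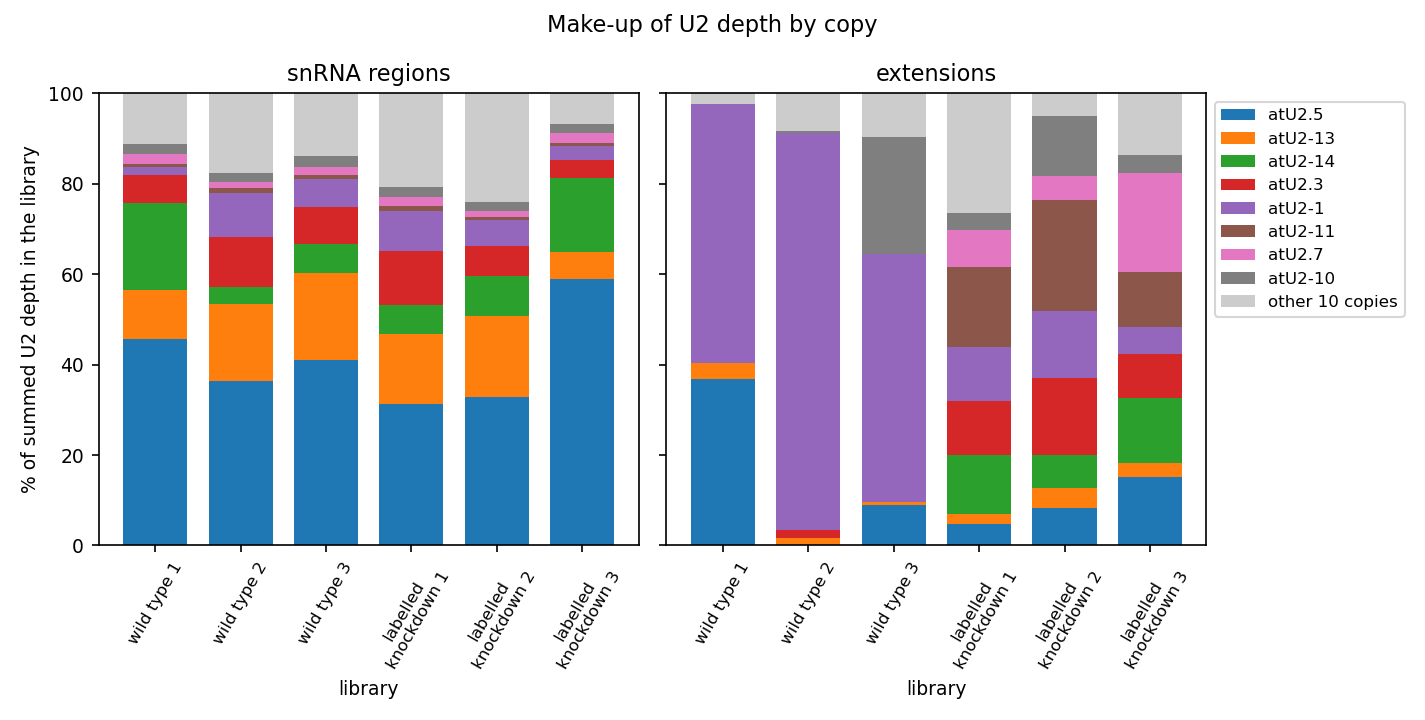
Share of each library's summed U2 depth held by 8 named copies and the other 10, for the snRNA regions (left) and the extensions (right), with 1 bar per library. atU2.5 leads the snRNA bars, and atU2-1 holds 54.8% to 87.7% of the wild type extension bars and 5.98% to 14.8% of the labelled-knockdown ones.

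Each extension was also set against its own snRNA in the same library. The ratio of extension to snRNA was called higher for 8 U2 copies and lower for 0 (limma on log2 of the ratio of depth + 1, adjusted over 75 copies). As background, 38.7% of the 75 ratios were called higher. Where an extension is at 0 in every library, this ratio moves with the snRNA alone: atU2.6 had a ratio difference of 1.02 and an snRNA difference of −1.02, and 3 ratios called outside U2 belong to copies with no extension reads. Of the 57 copies with extension reads in any library 45.6% were called, against 8 of 15 for U2, which is near this background. 13 U2 copies had snRNA reads in all 6 libraries, and in 8 of them the ratio was higher in every labelled-knockdown library than in any wild type library, against 44.4% of the 54 such copies of all families. The count of 8 dropped to 5 without any of wild type replicates 1, 2 and 3 or labelled-knockdown replicates 1 and 2, and to 6 without labelled-knockdown replicate 3. The ratio of atU2-1 passed in none of these. Summed over the family, extension depth was 0.0528%, 0.131% and 0.0962% of snRNA depth in wild type, against 2.42%, 1.34% and 4.55% in the labelled knockdown. The means were 0.0933% ± 0.0392 and 2.77% ± 1.63 (SD, n = 3; exact 2-sided permutation p = 0.1).

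Per base, the ratio differed widely between copies. After atU2-11 the extension stood at 158%, 181% and 289% of the depth of its own snRNA in the labelled-knockdown libraries and at 0 in wild type (log2 difference of the ratio 9.31 ± 0.28 SE, limma adjusted p = 6.35e-05). It was the copy with snRNA reads in every library whose extension was deeper per base than the snRNA in all 3 labelled-knockdown libraries. After atU2.7 the values were 39.3%, 19.6% and 193%, against 0 in wild type (8.31 ± 0.96 SE, limma adjusted p = 0.00480). After atU2.3 they were 9.53%, 13.4% and 44.7%, against at most 0.0816% in wild type (8.37 ± 0.80 SE, limma adjusted p = 0.00242). In each of these the highest percentage came from labelled-knockdown replicate 3, where the snRNA depth was lowest.

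The other called ratios had no percentage above 34.7% in any library. The atU2-14 extension stood at 19.3%, 4.32% and 15.6% of its snRNA in the labelled knockdown and at 0 in wild type (8.24 ± 0.97 SE, limma adjusted p = 0.00480). The atU2.5 extension stood at 1.42%, 1.32% and 4.55%, against 0.167%, 0 and 0.0814% (5.36 ± 1.36 SE, limma adjusted p = 0.0451), and the atU2-13 extension at 1.37%, 1.33% and 9.21%, against at most 0.0683% (5.47 ± 0.97 SE, limma adjusted p = 0.0184). These are the 2 copies of highest snRNA depth, and a relation between percentage and depth was not tested. The atU2-10 extension was at 15.4%, 33.5% and 34.7%, against 0, 0.137% and 4.16% (5.73 ± 1.55 SE, limma adjusted p = 0.0472). The atU2-1 extension was at 12.7%, 13.9% and 34.3%, against 7.23%, 4.61% and 3.29% in wild type (1.92 ± 0.54 SE, limma adjusted p = 0.0491). Its ratio was the one that passed from a wild type level well above 0, and it lay just inside the threshold, with atU2-10b/12 just outside at 6.15 ± 1.77 (SE; limma adjusted p = 0.0515). The ratio differences also move with the pseudocount: at 50 they were 3.79 for atU2-11, 3.60 for atU2.3, 2.60 for atU2.5 and 2.37 for atU2-10, which passed, and 2.95 for atU2.7, 2.86 for atU2-14, 2.21 for atU2-13 and 1.51 for atU2-1, which did not.

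**Figure D4:**
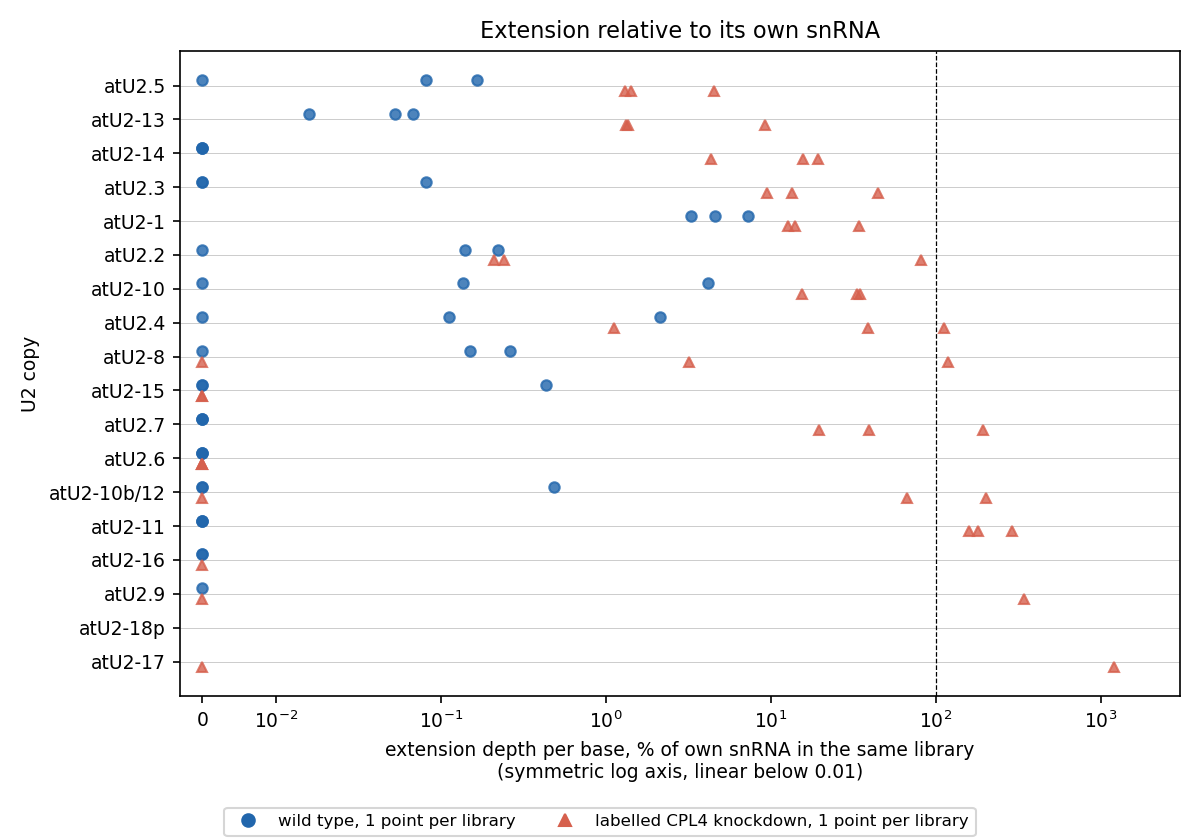
Extension depth per base as a percentage of the depth per base of the own snRNA, on a symmetric log axis, for the 18 U2 copies with 1 point per library; libraries without snRNA reads have no point, and the dashed line marks equal depth. atU2-11 lies to the right of the line in all 3 labelled-knockdown libraries, at 158%, 181% and 289%.

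Relative to U4 and U5, U2 snRNA depth was higher in every labelled-knockdown library than in any wild type library. The log2 ratio of U2 to U5 snRNA depth was 0.70, 0.32 and −0.03 in wild type, against 3.27, 3.23 and 1.78 in the labelled knockdown, and that of U2 to U4 was −2.62, −4.45 and −2.87 against −1.63, −1.50 and −2.26. Neither overlapped (exact 2-sided permutation p = 0.1 each, with the copy atU5-13 left out). U2 to U1 overlapped, at −2.26, −5.04 and −4.73 against −3.40, −3.11 and −0.45 (exact permutation p = 0.3). The percentages that follow are of summed depth, not per base, and so also move with the length of the snRNAs. The extension as a percentage of snRNA depth in the labelled knockdown was 2.77% ± 1.63 for U2, 3.10% ± 4.38 for U1, 0.605% ± 0.109 for U4 and 7.98% ± 3.01 for U5 (SD, n = 3). In wild type the means were 0.0933% for U2, 0.0110% for U1, 0.00976% for U4 and 0.0990% for U5. The log2 ratio of the U2 percentage to that of U1, U4 and U5 differed by −2.66, −2.39 and −1.85 (labelled knockdown minus wild type). The U2 percentage thus rose less in the mean, but the groups overlapped in each comparison. A difference in change was not shown (exact 2-sided permutation p = 0.3, 0.2 and 0.2, on log2 ratios).

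Genes that begin after a U2 copy were read from the authors' deposited table, with 1 FPKM per genotype and no replicates. Of 9 protein-coding genes whose annotated start lies within 2 kb after a U2 copy on the same strand, 7 carried a test, 2 were called higher and 0 lower, against 12.7% higher and 9.78% lower of 18038 tested genes. Their median log2 ratio was 0.54, against −0.003 for all tested genes. The annotation of TAIR10.1 lets some genes begin inside a U2 copy, and these were missed by that rule. Counted by the first coding base, a rule added after the values were seen, 9 tested genes follow a U2 copy, of which 4 were called higher, 0 lower, and 8 had a ratio above 0, with a median of 0.65.

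AT1G09800, which encodes a pseudouridine synthase family protein, begins its coding part 204 bp after atU2-11. Its annotated gene starts at position 3180734 of chromosome 1, the same base as the 5′ end of atU2-11, and so spans the snRNA and its extension. By the authors' deposited table its FPKM rose from 1.71 to 10.2 (5.97-fold, q = 0.00619), the largest ratio of the 9, after the U2 copy with the deepest extension. The deposited locus, from 3173534 to 3180421, is a bundle that reaches beyond the 3′ end of the gene, and on the minus strand it begins past the extension. AT2G20410, an RNA-binding ASCH domain protein gene whose coding part begins 277 bp after atU2-13 and whose annotated start lies inside the snRNA, had an FPKM that rose, by the authors' deposited table, from 2.85 to 4.47 (q = 0.0285). After atU2.7, with a coding start at 525 bp, FPKM of the P-loop nucleoside triphosphate hydrolase gene AT5G61450 rose from 4.74 to 6.92 there (q = 0.0225). After atU2.5, with a coding start at 513 bp, the authors' deposited table has a rise in FPKM from 15.9 to 32.9 for the mitochondrial heat shock protein gene MTHSC70-2 (q = 6.39e-04).

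Of the 9 genes, 5 follow a copy whose extension ratio was called higher, and the 4 genes called higher are among them. A log2 ratio above 0 was more widespread, in 8 of the 9. This split is no test, since the 9 are the set by coding start, chosen after the values were seen. AT1G09800 and AT2G20410, which were both called higher, entered through that rule alone. For atU2.5 the extension ratio passed under 5 of 11 alternatives, and its extension alone was not called. AT1G16825, a reticulon gene after atU2-1, was at 3.00 and 4.96 FPKM (q = 0.104) and AT3G56820, a cupin gene after atU2.4, at 3.72 and 6.87 FPKM (q = 0.0664) in the authors' deposited table. AT5G57830, after atU2-16, whose extension had no reads, was at 4.24 and 3.11 FPKM (q = 0.147) there and was the gene of the 9 with the lower value in the labelled knockdown. AT5G14540, after atU2-17, was at 15.3 and 18.5 FPKM (q = 0.148) and ARLA1D, a small GTPase gene after atU2-8, at 32.1 and 34.7 FPKM (q = 0.609) there. The deposited loci of the 4 genes called higher do not reach the extension before them, while that of AT3G56820 spans the atU2.4 extension. Whether reads of the extension entered the FPKM of the gene was not tested.

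**Figure D5:**
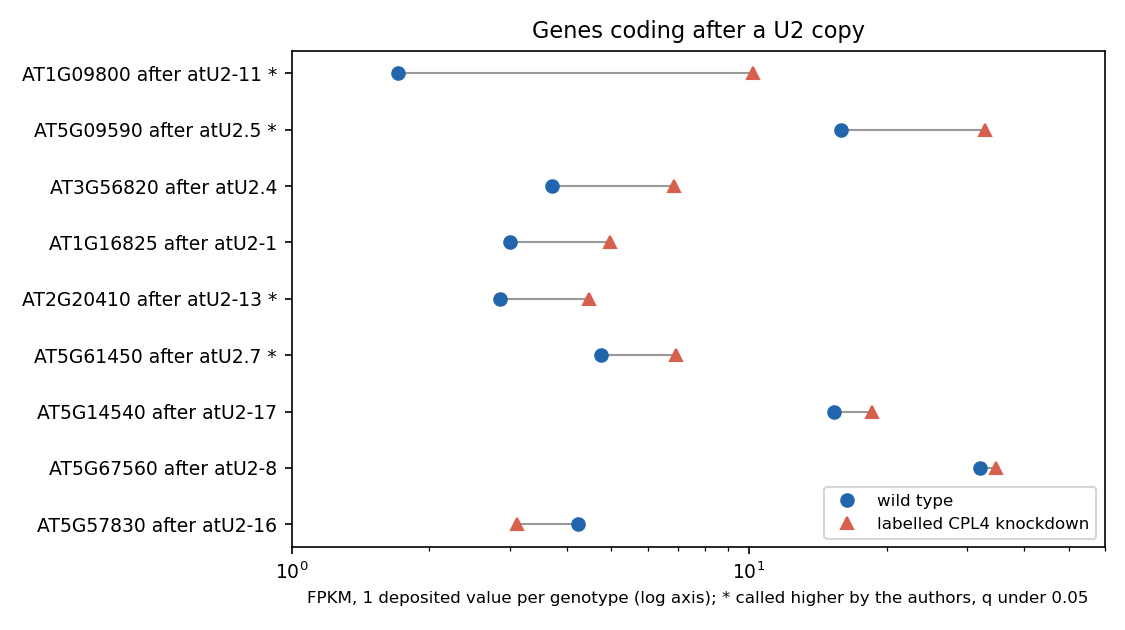
FPKM of the 9 tested protein-coding genes whose coding part begins within 2 kb after a U2 copy, 1 deposited value per genotype on a log axis, with an asterisk where the authors' q was under 0.05. AT1G09800 after atU2-11 goes from 1.71 to 10.2 FPKM, and AT5G57830 after atU2-16 is the gene with the lower value in the labelled knockdown.

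Proteins that work with U2 were read from the same gene table. Of 20 genes for U2 snRNP proteins, the SF3A and SF3B complexes and the U2AF factors, 20 carried a test in the authors' deposited table, 5 were called higher and 0 lower, beside 12.7% and 9.78% of all tested genes, with a median log2 ratio of 0.12. SAP130a and SAP130b, which encode an SF3B subunit, stood at 1.71 and 2.07 FPKM in wild type and rose 1.59-fold and 1.49-fold there (q = 0.00254 and 0.00898). These genes are near-identical copies, so reads may be split between them and each single value is uncertain. AT1G14650, an SF3A subunit gene, rose from 22.8 to 35.1 FPKM (q = 6.39e-04), emb2444, an SF3B subunit gene, from 15.1 to 21.3 FPKM (q = 0.00484), and ATU2AF65A, the large subunit that reads the polypyrimidine tract, from 50.5 to 66.5 FPKM (q = 0.0169), all by the authors' deposited table. U2A′ and U2B″, which bind a stem-loop of U2 snRNA as a pair, were at 19.6 and 21.5 FPKM and at 19.4 and 21.0 FPKM in that deposited table, and neither was called. Of 8 genes for snRNA transcription and 3′ end formation, 7 were tested and 0 called. SRD2, an activator of snRNA transcription, was at 1.23 and 0.685 FPKM (q = 0.0661), and DSP1, a subunit of the complex that cuts snRNA 3′ ends, at 1.70 and 1.49 FPKM (q = 0.569) in the authors' deposited table.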

How the data were processed

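Total RNA was depleted of ribosomal RNA, turned into cDNA with a PCR-based kit and sequenced in pairs, per the labels' protocols. Per the submitters' processing notes, the tools were Trim Galore 0.4.0, CASAVA 1.8.2, SAMtools, TopHat2 2.0.14 and Cuffdiff 2.2.1.3 on TAIR10; the sources used here do not give their options. The deposited coverage table holds a signal, the sum of per-base depth, as whole numbers without stated scaling. The deposited gene table holds FPKM with 1 value per genotype, and the authors' p-value and q-value for each gene.

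R 4.3.3 with limma 3.58.1 served for the tests, of log2(depth + 1) over all 150 regions, and of the log2 ratio of extension to snRNA over 75 copies, with Benjamini-Hochberg adjustment at 0.05. Log2 differences understate the change of low regions and, from 0, depend on the pseudocount. Sums and percentages were compared with exact 2-sided permutation tests over 3 against 3 libraries, which cannot go below p = 0.1. Genes were called at the authors' q under 0.05.

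Positions count from 1 and follow the files' build, TAIR10. Sequences come from RefSeq TAIR10.1 at the same coordinates, where 17 of 18 U2 regions begin with the same 12 bases; 77.0% of 623 tRNA genes had the same start and end in the deposited table and in TAIR10.1. Depth outside the listed regions is unknown. Members, gene lists and tests were chosen with earlier results of these data known. Named are all U2 copies, in full those called, the deepest and the pseudogene copy, the U2 genes, the genes after U2 copies, CPL4, and the called genes of the lists. Alternatives were pseudocounts of 10 and 50, a minimum mean depth of 10, a trended prior, a replicate block, median-ratio scaling, other sums, and leaving out each library. Python 3.11.15, pandas 2.3.3, numpy 2.4.6, Biopython 1.88 and matplotlib 3.10.9 were used.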

Additional observations from a re-analysis of the deposited data

How the results depend on the processing

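The 5 U2 extensions called higher stayed so under all 12 alternatives, which called 5 to 7 in all and 0 lower. The count of U2 ratios called higher, 8, was 5 with a pseudocount of 50 and 5 to 6 when a library was left out; the ratios of atU2-11 and atU2.3 passed under all 11 alternatives, that of atU2-1 under 0 of 11. Same-numbered libraries did not pair (correlations of deviations −0.57, 0.36 and −0.46 over 60 regions). With the replicate number as a block, 2 U2 ratios were called, 1 U2 snRNA (atU2-10b/12) was called lower, and 5 extensions higher. Median-ratio scaling, which rests on 54 snRNA regions and 6 extensions, moved the median log2 difference of regions with reads from −0.69 to 0.97. Under it 1 U2 snRNA was called higher, the atU2.5 snRNA difference became 1.01, and the difference in mean log2 U2 snRNA sum went from −0.64 to 1.07. That difference ran from −1.26 to 0.043 when a library was left out, reaching 0.043 without labelled-knockdown replicate 3. The U2 share of all extension depth differed by −6.55 percentage points, and by 0.156 with atU5-13 left out of the total. The causes were not tested. Counting neighbours by coding start, chosen after seeing the data, moved the genes called higher from 2 to 4. Low extension depths, a few reads each, limit every ratio.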
